A study of Homo sapiens with 4 samples.

Results

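The genes described here encode 9 enzymes of serine synthesis, folate-bound carbon transfer and proline synthesis: PHGDH, PSAT1, PSPH, SHMT1, SHMT2, MTHFD1, MTHFD1L, MTHFD2 and PYCR1. They were taken by symbol, each symbol matched 1 row, and all 9 of 60766 features were found and tested. RNA was sequenced from HCT116, an established human colon carcinoma line, in 2 libraries labelled control (CTR) and 2 libraries carrying a short hairpin RNA against ARID1A (shARID1A). ARID1A belongs to the SWI/SNF complex, which moves nucleosomes. The series asks how ARID1A relates to immune functions. The labels give the line and the genotype of each group, and name no hairpin sequence, clone or control hairpin. All cultures were grown in RPMI1640 medium with serum and glutamine.

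Expression was given as FPKM, fragments per kilobase of transcript scaled to the mapped fragments of the library, a scale that allows levels to be compared between genes. The totals behind the values, estimated from the steps between low values, were 69000000 to 75750000 fragments. At the lowest level of any of the 9 genes in a library this is at least 1514 fragments per kilobase. Changes are knockdown minus control on the log2(FPKM + 1) scale, fitted with limma over the 13605 features with a mean of at least 1 FPKM. A gene is said to have fallen or risen at a Benjamini-Hochberg adjusted p under 0.05. Nothing in the labels ties the replicates to separate cultures, so p-values measure the spread between these libraries, which may be technical. In bulk RNA, fewer cells that express a gene and less RNA per cell cannot be told apart.

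The target itself, ARID1A, was at 11.1 and 11.4 FPKM in control cells and 7.05 and 6.13 after knockdown, 58.7% of the control mean (log2 change -0.69, SE 0.077, limma adjusted p = 0.00438). Mitochondrially encoded transcripts took 4.29% to 4.35% of summed FPKM in control cells and 5.65% to 6.04% after knockdown. Of 10 colon epithelial markers, 7 reached 1 FPKM, CDX1 was listed at 0 in all libraries, VIL1 and CEACAM5 stayed under 1 FPKM, and their summed level was 2922 to 3027 FPKM in control cells and 4018 to 4173 after knockdown. KRT8, KRT18 and KRT19 made up most of that sum and were higher in both knockdown libraries, while EPCAM was at 312 and 312 FPKM in control cells and 147 and 141 after knockdown. KRT20 was at 2.01 and 2.42 FPKM in control cells and 14.3 and 13.5 after knockdown. CDH1 was at 25.6 and 25.1 FPKM in control cells and 24.1 and 24.0 after knockdown, and CDX2 overlapped between the groups. The part of these shifts in the results below was not tested. Markers of other cells were low: 1 of 7 leukocyte genes (CD68), 1 of 6 fibroblast genes (COL1A1) and 0 of 5 endothelial genes reached 1 FPKM. The leukocyte genes CD3E and TYROBP were at 0 in all 4 libraries. The summed leukocyte markers were at 6.26 to 7.77 FPKM in control cells and 3.31 to 3.93 after knockdown, and the fibroblast markers at 3.77 to 5.01 and 6.15 to 6.43.

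Cells make serine from the glycolytic intermediate 3-phosphoglycerate in a short chain of reactions. PHGDH oxidises it, PSAT1 adds an amino group from glutamate, and PSPH removes the phosphate. The hydroxymethyltransferases SHMT1 in the cytosol and SHMT2 in mitochondria then split serine into glycine and a carbon unit carried on folate. MTHFD2 and MTHFD1L pass that unit to formate inside mitochondria, and MTHFD1 takes it up in the cytosol for purine, thymidylate and methionine synthesis. PYCR1 performs the last step of proline synthesis in mitochondria. In many proliferating cells several of these enzymes are induced together by the transcription factor ATF4 when amino acids are short.

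Of the 9 genes, 8 fell after knockdown, 0 rose and 1, MTHFD1, did not pass (limma). At an unadjusted p under 0.05 the counts were also 8 and 0. Over all tested features 18.9% fell and 18.2% rose. The median log2 change of the 9 genes was -0.55, against -0.00299 over all tested features and -0.38 over the 2565 features that fell. Together the 9 genes held 0.188% and 0.187% of summed FPKM in control cells and 0.109% and 0.104% after knockdown. For each of the 8 genes that fell, both knockdown libraries lay below both controls, an arrangement found in 36.5% of tested features. For MTHFD1 both knockdown libraries lay just above both controls, as in 35.8% of tested features. The falls were uneven, from 3.61-fold at the entry to serine synthesis to 1.23-fold at SHMT1.

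**Figure D1:**
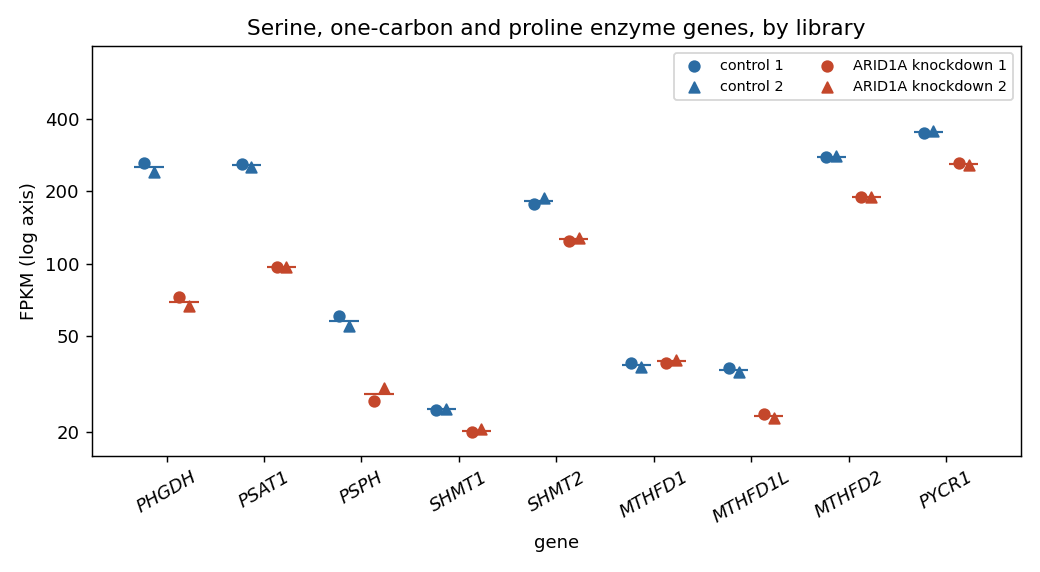
FPKM (log axis) of the 9 genes in each of the 4 libraries, controls in blue and ARID1A knockdown in red, with a line at each group mean of n = 2. The groups are widest apart at PHGDH, where controls are at 240 and 263 FPKM and knockdown libraries at 66.5 and 72.6, and nearly meet at MTHFD1.

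The serine synthesis genes fell most. PHGDH, the first and committed enzyme of the chain, lies on chromosome 1 (119648411 to 119744226, GRCh38). It was at 263 and 240 FPKM in control cells and 72.6 and 66.5 FPKM after knockdown. The knockdown values were far below both controls, and the gap was many times the spread within either group. Its mean went from 251 ± 15.8 to 69.5 ± 4.36 FPKM (SD, n = 2), 3.61-fold lower (log2 change -1.84, SE 0.066, limma adjusted p = 3.63e-04). PHGDH ranked 31 among the 13605 tested features ordered from the largest fall, so 0.221% of features had a larger one.

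PSAT1, the aminotransferase of the second step, on chromosome 9 (78297125 to 78330093), was at 260 and 252 FPKM in control cells and 97.3 and 96.5 FPKM after knockdown. The knockdown libraries lay close together, at 96.9 ± 0.574 FPKM (SD, n = 2), and the control mean was 2.64-fold higher (log2 change -1.39, SE 0.035, limma adjusted p = 2.27e-04). PSPH, the phosphatase that releases serine, on chromosome 7 (56011051 to 56051604), was at 60.6 and 55.0 FPKM in control cells and 27.0 and 30.4 after knockdown. The groups did not overlap, and the control mean was 2.01-fold higher (log2 change -0.99, SE 0.077, limma adjusted p = 0.00185). The size of the fall decreased along the chain. The ratio of PHGDH to PSAT1, chosen for a test after the values were seen, was 1.01 and 0.955 in control cells and 0.747 and 0.689 after knockdown. That of PSAT1 to PSPH, chosen in the same way, was 4.29 and 4.57 in control cells and 3.60 and 3.18 after knockdown. Neither ratio overlapped between the groups. The exact permutation test (two-sided) returned p = 0.333 for each, the lowest value open to a design of 2 and 2 libraries, so these differences could not reach a threshold of 0.05.

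RefSeq promoter windows (GRCh38.p14, from 250 bases before to 50 after a start site) were matched for 6 of the 9 genes, all except PSPH, SHMT2 and PYCR1, and searched on both strands for 3 motifs. The motifs were the CCAAT box (CCAAT), the E-box that MYC proteins bind (CACGTG) and a core of the element bound by C/EBP and ATF factors (TGATGNAA). Of the 6 genes, 5 fell and MTHFD1 did not pass. The stretches printed hold selected matches, not all of the same motif, and do not compare the genes that fell with MTHFD1. Capitals mark the matches. The upstream stretches of PSAT1 (chr9:78296992-78297097, plus strand) and SHMT1 (chr17:18363564-18363646, minus strand) lie outside annotated exons. The others are short windows around a match: PHGDH (chr1:119711853-119711877), MTHFD2 (chr2:74198531-74198555), MTHFD1L (chr6:150866347-150866374) and MTHFD1 (chr14:64388127-64388151), all on the plus strand.
PSAT1: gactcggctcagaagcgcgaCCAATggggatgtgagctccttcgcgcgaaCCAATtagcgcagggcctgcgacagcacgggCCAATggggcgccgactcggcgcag
SHMT1: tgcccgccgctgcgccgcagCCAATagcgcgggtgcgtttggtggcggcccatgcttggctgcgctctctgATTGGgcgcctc
PHGDH: gtatttccgtCCAATcaaaaggaga
MTHFD2: gcggcagggaCCAATgggtggcgga
MTHFD1L: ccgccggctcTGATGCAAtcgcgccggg
MTHFD1: tttctttccgCCAATcatttccgcc

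The CCAAT box was present in a window of each of the 6 genes and in 34.6% of all 35116 promoter windows of the same length. The motif counts here are by gene and the shares by window, and MTHFD1L has several windows, so they are not like for like. PSAT1 held 3 copies, 113, 83 and 52 bases before its start. On the sense strand PHGDH held 1 copy 71 bases before its start, MTHFD2 held copies at 184 and 74 bases, SHMT1 at 76 and MTHFD1 at 216. The RefSeq start used for PHGDH, at 119711934, lies inside the locus given above and not at its edge. The copy of MTHFD1L stood 193, 154 or 40 bases before its annotated starts. On the opposite strand, where the box reads ATTGG, SHMT1 held a copy 25 bases before its start and MTHFD1, the gene that did not pass the test, a copy 36 bases after it. The C/EBP-ATF core was found in MTHFD1L only, against 3.62% of all windows, and the E-box in MTHFD1L and MTHFD1, against 7.26%. In MTHFD1 the E-box stood 15 bases before the start. MTHFD1L has several annotated starts, and the same TGATGCAA stands 129, 90 or 25 bases from them, before the first 2 of these and after the third. These are matches of letters in these windows and say nothing of binding.

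SHMT1 and SHMT2, which split serine into glycine in different compartments, both fell, SHMT1 by less than SHMT2. SHMT2, the mitochondrial enzyme, on chromosome 12 (57229573 to 57234935), was at 177 and 187 FPKM in control cells and 124 and 128 after knockdown. All its knockdown values were below the controls, with a 1.44-fold higher control mean (log2 change -0.52, SE 0.043, limma adjusted p = 0.00211). SHMT1, on chromosome 17 (18327860 to 18363563), was the lowest of the 9 genes at 24.6 and 25.1 FPKM in control cells and 19.99 and 20.5 after knockdown. This 1.23-fold difference passed (log2 change -0.28, SE 0.042, limma adjusted p = 0.00938), but not without control replicate 1 (limma adjusted p = 0.0589) or control replicate 2 (0.0678). The gene SMCR8 overlaps 197 bases of SHMT1 and was at 3.87 and 4.10 FPKM in control cells and 4.88 and 4.81 after knockdown, and with no stated strand setting their shared reads cannot be told apart.

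Of the folate enzymes, the mitochondrial pair fell and the cytosolic one did not pass. MTHFD2, a dehydrogenase and cyclohydrolase, on chromosome 2 (74198610 to 74217565), was at 276 and 279 FPKM in control cells and 190 and 188 after knockdown. Its control mean was 1.47-fold higher and the replicates nearly coincided (278 ± 2.47 and 189 ± 0.884 FPKM; SD, n = 2; log2 change -0.55, SE 0.032, limma adjusted p = 9.69e-04). MTHFD1L, which releases formate, on chromosome 6 (150865549 to 151101887), was at 37.1 and 35.4 FPKM in control cells and 23.7 and 22.9 after knockdown. That is 1.56-fold higher in control cells, with no overlap (log2 change -0.62, SE 0.046, limma adjusted p = 0.00164).

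MTHFD1, the cytosolic enzyme with synthetase, cyclohydrolase and dehydrogenase activities, on chromosome 14 (64388031 to 64463457), was at 38.7 and 37.3 FPKM in control cells and 38.7 and 39.9 after knockdown. The highest control and the lowest knockdown library were almost equal (38.66 and 38.71 FPKM), and the log2 change was 0.05 (SE 0.042, limma adjusted p = 0.418). Its 95% interval ran from -0.06 to 0.16, which leaves out falls of the size seen in the other 8 genes, the nearest being SHMT1 at -0.28. The interval reads only the spread between these libraries, which may be technical. The ZBTB25 gene overlaps MTHFD1 over 14352 bases and was at 6.15 and 6.81 FPKM in control cells and 4.99 and 5.31 after knockdown. The feature AL122035.1 shares 25623 bases with MTHFD1 and was at 1.25 and 1.87 FPKM in control cells and 0.560 and 0.268 after knockdown. With no stated strand setting, reads that either shares with MTHFD1 cannot be told apart.

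PYCR1, the mitochondrial pyrroline-5-carboxylate reductase, on chromosome 17 (81932384 to 81942412), was the most abundant of the 9 genes. It was at 348 and 355 FPKM in control cells and 262 and 256 after knockdown. The groups did not overlap, and the control mean was 1.36-fold higher (log2 change -0.44, SE 0.034, limma adjusted p = 0.00177). PYCR1 ranked 250 by level among the tested features in control cells and 364 after knockdown.

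**Figure D2:**
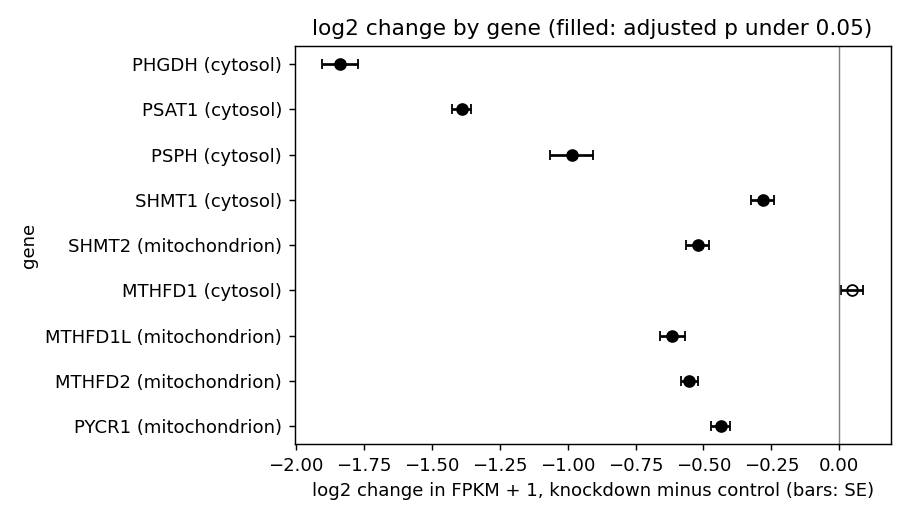
Change of each gene on the log2(FPKM + 1) scale, knockdown minus control, with bars of 1 SE and the compartment of the enzyme beside the name. The 3 serine synthesis genes are farthest left, at -1.84, -1.39 and -0.99, the 4 mitochondrial enzymes lie between -0.62 and -0.44, and the open point for MTHFD1 is at 0.05.

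The uneven falls changed the order of levels. In the controls PYCR1 was highest, followed by MTHFD2, PSAT1, PHGDH, SHMT2, PSPH, MTHFD1, MTHFD1L and SHMT1. PSAT1 and PHGDH overlapped there, and the 1.76 FPKM between MTHFD1 and MTHFD1L was smaller than the sum of their SDs. In the knockdown SHMT2 stood above PSAT1 and PHGDH, and MTHFD1 above PSPH, with each pair of neighbours separate in both libraries. PHGDH went from rank 351 among the tested features to 1529, PSAT1 from 346 to 1055 and PSPH from 1786 to 3604. MTHFD1L went from rank 2905 to 4259 and SHMT1 from 4037 to 4756, while MTHFD2 went from 322 to 503 and SHMT2 from 510 to 788.

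**Figure D3:**
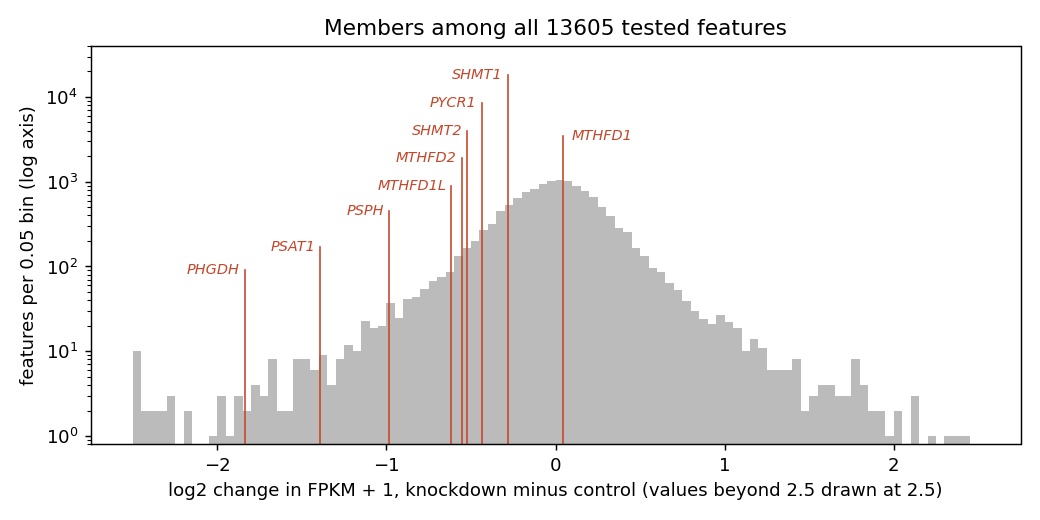
Histogram of the log2 change of all 13605 tested features (features per bin of 0.05, log axis), with a red line at each of the 9 genes; line heights only separate the names, and values beyond 2.5 in either direction are drawn at 2.5. PHGDH, PSAT1 and PSPH lie in the far left of the distribution, PYCR1, SHMT2, MTHFD2 and MTHFD1L on its left shoulder, and MTHFD1 at its centre.

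Ratios between related enzymes within a library do not depend on scaling. The ratio of MTHFD1L to MTHFD1 was 0.959 and 0.948 in control cells and 0.612 and 0.575 after knockdown, a log2 difference of -0.69. SHMT2 over SHMT1 was 7.18 and 7.45 against 6.21 and 6.25, a log2 difference of -0.23. MTHFD2 was compared with MTHFD2L, a mitochondrial paralog expressed at 5.67 ± 0.831 FPKM in control cells and 5.12 ± 0.0652 after knockdown (limma adjusted p = 0.402). Without control replicate 2 its log2 change of -0.12 became 0.0076. Their ratio was 54.3 and 44.6 in control cells and 36.7 and 37.1 after knockdown, a log2 difference of -0.41 that was -0.27 without control replicate 1 and -0.56 without control replicate 2. These 3 ratios were lower in both knockdown libraries than in both controls. The exact permutation test (two-sided) returned p = 0.333 for each, also after adjustment over the 6 ratios tested, of which 1 is not reported here, and the design allows no smaller p.

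**Figure D4:**
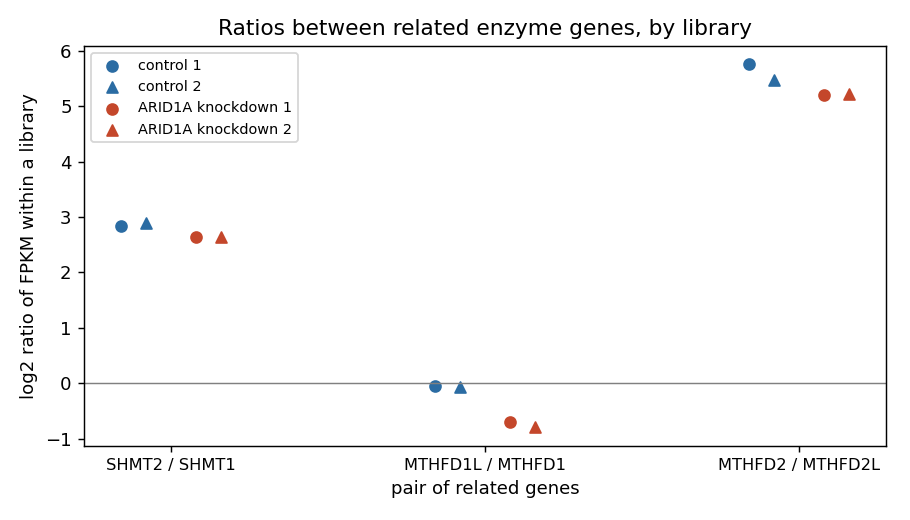
Log2 ratio of FPKM within each library for 3 pairs of related enzyme genes, controls in blue and knockdown in red. Knockdown libraries lie below the controls in each pair, with the widest gap for MTHFD1L over MTHFD1 (-0.69) and MTHFD2 over MTHFD2L (-0.41).

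Transport genes for serine and glycine fell for the larger part. Of 10, 9 were tested, 5 fell and 2 rose, beside 18.9% and 18.2% over all tested features. Their median log2 change was -0.48. With quantile normalization 5 fell and 1 rose, and with median-of-ratios scaling 5 fell and 3 rose. SLC1A4, an exchanger of alanine, serine and cysteine, went from 6.32 and 6.24 FPKM in control cells to 1.53 and 1.61 after knockdown, 25.0% of its control level (limma adjusted p = 6.57e-04). SLC1A5, which carries glutamine as well as serine, fell from 137 ± 1.73 to 73.9 ± 1.58 FPKM (SD, n = 2; limma adjusted p = 4.3e-04). The glycine transporter gene SLC6A9 fell from 8.70 ± 0.433 to 5.52 ± 0.309 FPKM and SLC38A1, a neutral amino acid carrier, from 56.8 ± 0.245 to 38.8 ± 2.24. Against this direction, SLC38A2 rose from 284 ± 3.48 to 321 ± 5.3 FPKM and SFXN2, a sideroflexin of the mitochondrial membrane, from 2.17 ± 0.19 to 4.04 ± 0.146. SFXN1, the sideroflexin that carries serine into mitochondria, named after its values were seen, was at 83.9 and 77.0 FPKM in control cells and 85.9 and 81.5 after knockdown (limma adjusted p = 0.461). The 5 falls held whichever library was left out, while the call of SLC38A2 was lost without control replicate 1, control replicate 2 or knockdown replicate 1 (highest limma adjusted p = 0.118).

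Other folate genes differed little between the groups. Of 17 genes of the folate cycle and folate transport outside the 9, 14 were tested. Of these, 2 fell, 2 rose and 10 did not pass, beside 18.9% that fell and 18.2% that rose over all tested features. Their median log2 change was -0.06. With quantile normalization 1 fell and 2 rose. MTR, methionine synthase, was at 4.69 ± 0.223 FPKM in control cells and 3.66 ± 0.0446 after knockdown, and GGH, which trims folate polyglutamates, at 42.0 ± 0.323 and 36.4 ± 0.95 (SD, n = 2; log2 changes -0.29 and -0.20). FPGS, which adds polyglutamates, was at 23.0 ± 0.696 FPKM in control cells and 25.8 ± 0.119 after knockdown (SD, n = 2; log2 change 0.16). The calls of MTR and FPGS were lost on leaving out any 1 of the 4 libraries (limma adjusted p = 0.091 to 0.144 and 0.103 to 0.184). That of GGH was lost without either control or knockdown replicate 2 (highest 0.106). With 1 library left out, between 0 and 1 of the list fell and 0 rose.

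In the routes that use glycine, homocysteine and serine beyond folate, 2 genes moved by a log2 of more than 1 in opposite directions. SRR, serine racemase, was at 8.07 and 7.89 FPKM in control cells and 3.43 and 3.41 after knockdown, 2.33-fold lower (limma adjusted p = 0.00106). CTH, the enzyme that releases cysteine in transsulfuration, was at 11.2 and 9.59 FPKM in control cells and 23.7 and 23.3 after knockdown, 2.26-fold higher (limma adjusted p = 0.00152). CBS, the enzyme before it in that route, named after its values were seen, reached no more than 0.0711 FPKM. The calls of SRR and CTH held whichever library was left out. Of 19 genes listed, 11 were tested, 2 fell and 3 rose, beside 18.9% and 18.2% over all tested features. The other calls, GLDC of glycine cleavage (2.84 ± 0.422 to 1.87 ± 0.0443 FPKM), GCAT (23.6 ± 2.18 to 28.2 ± 0.0872) and MAT2B (51.0 ± 0.65 to 56.8 ± 0.353), were small. The calls of GLDC and MAT2B were lost on leaving out any 1 of the 4 libraries (limma adjusted p = 0.0601 to 0.141 and 0.0766 to 0.145), and that of GCAT without control replicate 2 or either knockdown library (highest 0.141). With 1 library left out, 1 of the list fell and 1 to 2 rose.

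The purine and thymidylate genes, which use carbon units from folate, showed mostly small differences. All 14 were tested, 4 fell, 1 rose and 9 did not pass, with a median log2 change of -0.08. The shares over all tested features were 18.9% that fell and 18.2% that rose. ADSS1, an adenylosuccinate synthase, fell from 11.9 ± 0.364 to 7.16 ± 0.0937 FPKM, and IMPDH1, an inosine monophosphate dehydrogenase, rose from 38.2 ± 1.41 to 53.9 ± 2.79 (SD, n = 2; limma adjusted p = 0.00211 and 0.0043). The more abundant paralog IMPDH2 fell from 340 ± 6.09 to 291 ± 1.88 FPKM, PPAT from 31.8 ± 0.181 to 27.4 ± 0.541 and PRPS2 from 39.5 ± 0.329 to 35.0 ± 1.75. The call of IMPDH2 was lost without either control (highest limma adjusted p = 0.078), that of PPAT without either control or knockdown replicate 2 (highest 0.0975), and that of PRPS2 without either control or knockdown replicate 1 (highest 0.182). Between 1 and 4 of the list fell with 1 library left out. GART and ATIC, whose enzymes take the folate carbon, were named after their values were seen and did not pass (log2 changes -0.01 and 0.02).

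Around PYCR1, 2 of 13 genes of the proline, glutamate and aspartate family fell and 2 rose, beside 18.9% and 18.2% over all tested features. Under median-of-ratios scaling 3 fell and 2 rose, and under quantile normalization 4 fell and 2 rose. ASNS, asparagine synthetase, was at 220 and 209 FPKM in control cells and 71.3 and 63.7 after knockdown, 3.18-fold lower (limma adjusted p = 3.95e-04). GPT2, a mitochondrial alanine aminotransferase, fell from 29.3 ± 0.251 to 15.1 ± 0.831 FPKM (SD, n = 2). OAT, which links ornithine to proline, rose from 106 ± 1.83 to 140 ± 2.41 FPKM, and PRODH, which breaks proline down, from 1.33 ± 0.165 to 2.28 ± 0.289. The call of PRODH was lost on leaving out any 1 of the 4 libraries (limma adjusted p = 0.0537 to 0.121). With 1 library left out, 2 of the list fell and 1 rose. PYCR3, a cytosolic paralog of PYCR1, was at 6.37 ± 0.252 FPKM in control cells and 7.10 ± 0.952 after knockdown (SD, n = 2; limma adjusted p = 0.341). ALDH18A1, the enzyme that feeds PYCR1, was named after its values were seen, with 37.1 and 36.5 FPKM in control cells and 39.3 and 39.7 after knockdown (limma adjusted p = 0.0977).

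The ATF4 list, of the regulator, kinases of the EIF2AK family and further targets, had the lowest median of the lists. Of 21 genes, 20 were tested, 16 fell and 1 rose, with a median log2 change of -0.75. The shares over all tested features were 18.9% that fell and 18.2% that rose. ATF4 itself was at 570 and 578 FPKM in control cells and 437 and 450 after knockdown, 1.29-fold lower (limma adjusted p = 0.00275). The cystine transporter gene SLC7A11 had a log2 change of -2.03, the stress gene NUPR1 of -1.95, the pseudokinase gene TRIB3 of -1.76 and the glutathione-degrading CHAC1 of -1.18. None of the kinase genes fell. The 1 gene that rose was EIF2AK2, the double-stranded RNA kinase, from 27.7 ± 0.662 to 48.0 ± 2.62 FPKM (SD, n = 2). EIF2AK1, EIF2AK3 and EIF2AK4, named after their values were seen, did not pass (log2 changes 0.0019, -0.04 and 0.07). Among the other regulators, NFE2L2, the antioxidant factor NRF2, fell from 78.1 ± 0.608 to 63.6 ± 0.624 FPKM (limma adjusted p = 0.00493). MYC rose from 285 ± 4.08 to 325 ± 10.3 FPKM (limma adjusted p = 0.0205), a call lost without either control or knockdown replicate 2 (highest 0.128). HIF1A also fell (log2 change -0.23), a call lost without either control (highest limma adjusted p = 0.0753). Of the 9 other regulators tested, 3 fell and 1 rose (3 and 0 with quantile normalization), beside 18.9% and 18.2% over all tested features. Fewer fell with any 1 library left out.

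Glycolysis supplies 3-phosphoglycerate. Over all tested features 18.9% fell and 18.2% rose. Of 18 glycolysis genes, 4 fell and 5 rose, close to those shares, with a median log2 change of -0.04. Quantile normalization turned this split to 8 that fell and 3 that rose. PGAM1, the mutase that draws 3-phosphoglycerate onward along glycolysis, was at 265 and 260 FPKM in control cells and 326 and 333 after knockdown (log2 change 0.33, limma adjusted p = 0.00345). PKM, pyruvate kinase, rose from 777 ± 10.4 to 1166 ± 14.6 FPKM (SD, n = 2), while ENO1, the enolase between them, fell from 1397 ± 20.3 to 1075 ± 6.51. The paralog ENO2 fell from 59.4 ± 4.04 to 39.8 ± 0.42 FPKM and ALDOC from 132 ± 1.88 to 101 ± 2.56. The calls of BPGM (log2 change 0.31), PFKM (0.22) and PFKP (-0.11) were lost with 1 library left out: BPGM and PFKP without any of the 4 (highest limma adjusted p = 0.0803 and 0.191), and PFKM without control replicate 1 or either knockdown library (highest 0.119). With 1 library left out, 3 of the list fell and 2 to 3 rose.

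**Figure D5:**
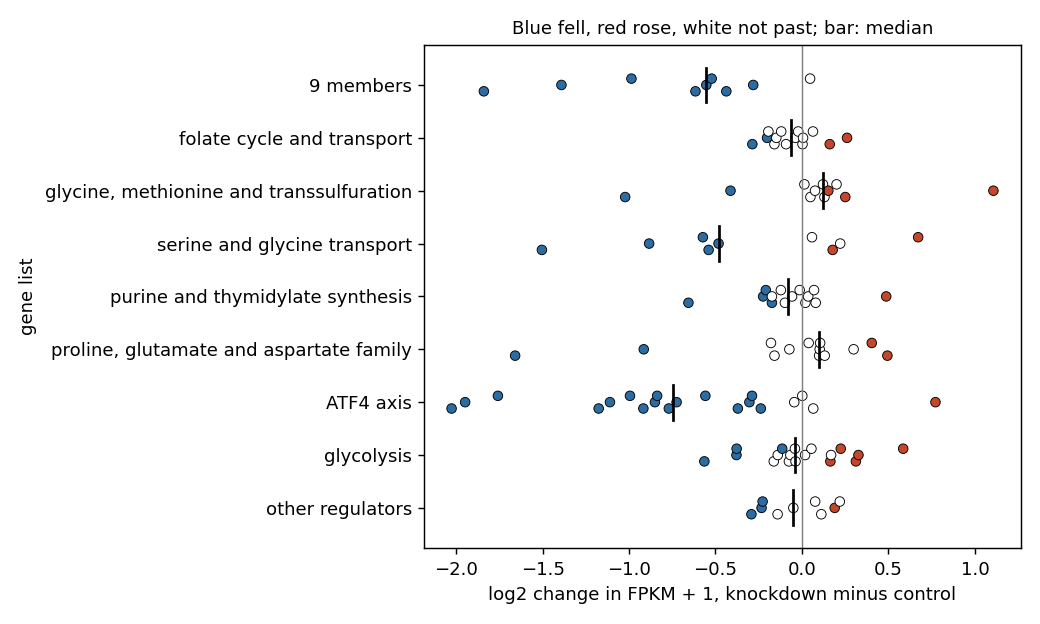
Log2 change of each tested gene in the 9 members and in 8 gene lists, knockdown minus control, with genes that fell in blue, genes that rose in red, genes that did not pass in white and a black bar at each median. The medians of the 9 members (-0.55), the serine and glycine transport genes (-0.48) and the ATF4 list (-0.75) lie left of 0, and those of the other lists lie between -0.08 and 0.12.

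Leaving out features with clone names, the tested features with the profile most like that of PHGDH were SERPINA5, TSC22D1, TRIB3, SNTB1 and RPS27P29, in that order. Likeness was the Euclidean distance between centred log2(FPKM + 1) values over the 4 libraries, from 0.0971 for SERPINA5 to 0.165 for RPS27P29. TSC22D1, a leucine zipper protein gene, was at 282 and 282 FPKM in control cells and 75.3 and 74.8 after knockdown, close to PHGDH in level too. RPS27P29 is a ribosomal protein pseudogene listed at 0 in both knockdown libraries and its reads cannot be told apart from those of the parent gene where the copies are alike. PSAT1, at a distance of 0.459, had 39 features nearer to PHGDH, itself counted, and MTHFD1L, at 1.23, had 501. With 2 groups of 2 libraries, this distance mostly reads the size of the group difference.

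Pseudogene copies of the 9 genes were nearly silent in these tables. Of 14 annotated pseudogene copies of these genes, 10 were listed at 0 in all libraries, among them PSPHP1, and the highest value of any copy was 0.252 FPKM. On the files' loci 17 features overlap 6 of the genes, and none overlap PHGDH, PSAT1 or PSPH. Apart from SMCR8 and ZBTB25, the highest of them was AL133260.1, within MTHFD1L, at 3.79 to 4.34 FPKM.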

How the data were processed

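For every library the authors supplied a table of FPKM by gene, per the file headers. The submitters' processing notes name STAR, Cufflinks and GRCh38. Their versions, the annotation, the strand setting and any filter: not given in the sources used here. Of 60811 rows, 45 second copies of pseudoautosomal genes were dropped, and 2347 values under 1e-09 were set to 0. FPKM values are not counts, so limma 3.58.1 in R 4.3.3 was used on log2(FPKM + 1), with a mean of at least 1 FPKM, lmFit and eBayes with a trend (2.79 prior degrees of freedom), Benjamini-Hochberg adjusted over 13605 features. Permutation tests used scipy 1.17.1. Depth was estimated from low values of long single-transcript genes of GENCODE release 29, of which 83.4% to 86.3% were whole fragments within 0.1. In simulated data of 13605 features, 200 were moved per run. The fit recovered 4% of those moved by a log2 of 0.25, and 37.2%, 70% and 93.6% of those moved 0.5, 1 and 2. Of its calls 2.10% were false. In the data themselves 37.1% of features were called, which makes the adjusted threshold less strict than in the simulation. These rates therefore do not measure the recovery of the fit reported here. The genes and lists were chosen with earlier results of these data known. Named were the 9 genes, ARID1A, ATF4, MYC, NFE2L2, paralogs, pseudogene copies and overlapping features, up to 4 falls and 4 rises per list by absolute log2 change, and the 5 features nearest to PHGDH. Sequences are from RefSeq. Some results under this rule are not reported here.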

Additional observations from a re-analysis of the deposited data

How the results depend on the processing

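The 9 genes kept their directions under every alternative run (pseudocount of 0.1, no filter, a filter of 5 FPKM, median-of-ratios scaling, quantile normalization, no trend, the replicate block and each library left out), and 8 fell in each except without a control library. Without 1 library, 7 to 8 fell, and SHMT1 had log2 changes from -0.30 to -0.26 and limma adjusted p from 0.0368 to 0.0678. Over all features, 1413 fell and 1373 rose with no filter, and 922 to 1598 fell and 954 to 1678 rose without 1 library. The deviations of same-numbered libraries from their group means had a correlation of -0.00993. With 2 libraries a group this value is the same for both numbers, so it does not settle whether the replicate numbers pair the libraries. With the replicate block 2114 features fell and 2012 rose, 8 of the 9 genes still fell, and 1 folate gene fell and 0 rose, while 1 glycine and methionine gene fell and 1 rose.

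In the folate list, 1 fell and 0 rose with no filter, 1 fell with a filter of 5 FPKM or quantile normalization, 1 rose with no trend, and 0 to 1 fell and 0 rose without 1 library. In the glycine and methionine list, 1 fell with no filter, with a filter of 5 FPKM and with quantile normalization, 1 rose with no trend, and 1 fell and 1 to 2 rose without 1 library. In the transport list, 1 rose with quantile normalization, with no trend and without either control (1 to 2 without 1 library). Of the purine genes 1 to 4 fell without 1 library. In the proline list, 1 rose with no filter and without 1 library, and 4 fell with quantile normalization. Of the glycolysis genes, 3 rose with no filter or no trend, 8 fell and 3 rose with quantile normalization, and 2 to 3 rose without 1 library. Of the other regulators, 0 rose with no filter, no trend or quantile normalization, and 1 to 2 fell and 0 to 1 rose without 1 library. MTHFD2L, not called, had a log2 change of -0.25 without control replicate 1 and 0.0076 without control replicate 2. Of 42 other named genes called, 24 passed whichever library was left out and 9 lost the call with the replicate block. The cause of these shifts was not tested. Estimated depth gives at least 1514 fragments per kilobase for each of the 9 genes. With 2 libraries a group, no exact permutation test can pass the threshold.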
